A study of Rattus norvegicus with 60 samples.

Results

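The comparison of pair-fed (PF) with control (C) offspring took in 32 of the 60 samples of the series, all of them hypothalamus from female rats of the outbred Sprague-Dawley strain. There were 16 samples per prenatal treatment, 4 at each of 4 ages, P1, P8, P15, and P22 (P for postnatal day), chosen by the treatment, age, and tissue given in the labels. The youngest samples are titled P0, while their age is given as 1 day. Both treatments were given to the dams between gestation days 1 and 21. PF dams received a liquid diet with maltose-dextrin in place of ethanol, limited to what an alcohol-fed partner ate, whereas C dams ate a pelleted form of the control diet freely. Neither group received alcohol, and all dams then went back to chow. A PF vs. C difference thus covers a limited amount of food and a liquid in place of a pelleted diet, and these cannot be told apart. The samples came from 12 C and 14 PF litters, and no litter gave more than 1 sample at an age.

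DNA methylation is the addition of a methyl group to cytosine, in mammals mostly where a guanine follows, and its pattern is laid down anew before birth and changes further as brain cells mature. The hypothalamus controls feeding, growth, reproduction, and the stress response, and food restriction during gestation is widely studied for lasting effects on these functions. In methylated DNA immunoprecipitation with sequencing (meDIP-seq), an antibody to methylated cytosine pulls down DNA fragments, and stretches with more fragments than their surroundings are called as peaks. Peak height follows both the degree of methylation and the number of CpG sites, so heights are compared here between samples at one place and not between places. In whole hypothalamus, a change in the methylation of cells and a change in the mix of cells cannot be told apart.

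Between 12521572 and 21249624 fragments per sample lay behind the peaks, and a sample held 138637 to 226329 peaks. Where a peak was missing, the files give no value, so differences under the calling threshold were not detectable. At P22, where white blood cells (WBC) of the same animals served as a check of the tissue, the 8 hypothalamus samples had peaks in 82.3 to 91.7% of the hypothalamus-only regions and in 5.67 to 12.4% of the WBC-only regions. WBC samples other than PF replicate 15 had them in 3.58 to 7.80% and 79.7 to 91.7%. Hypothalamus samples of P1 had them in 31.3 to 50.3% and 27.4 to 38.0%, with no WBC of that age, so the check applies to P22 alone.

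The amount of methylated DNA called did not differ between PF and C beyond the spread between samples. C samples held 181569 ± 19958 peaks (SD, n = 16) and PF samples 185474 ± 28629 (SD, n = 16), a difference of 3905 (two-sided permutation of labels within ages, p = 0.500, adjusted p = 0.711 over 5 sample measures). At P1, the PF samples held between 177723 and 226329 peaks and the C samples between 180964 and 212675. The corresponding ranges at P8 were 196944 to 213438 in PF and 176017 to 215175 in C. At P15, PF samples spread from 138637 to 198370, while C samples stayed within 178703 to 197698. The groups were close at P22, at 146319 to 163088 in PF and 146735 to 168933 in C. PF and C overlapped at all 4 ages, and no age had an exact permutation p under 0.200, where 4 against 4 samples allow 0.0286 at the smallest. Covered length, median peak length, fragments, and the scaling factor did not differ beyond the spread between samples either (adjusted p between 0.711 and 0.975).

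**Figure D1:**
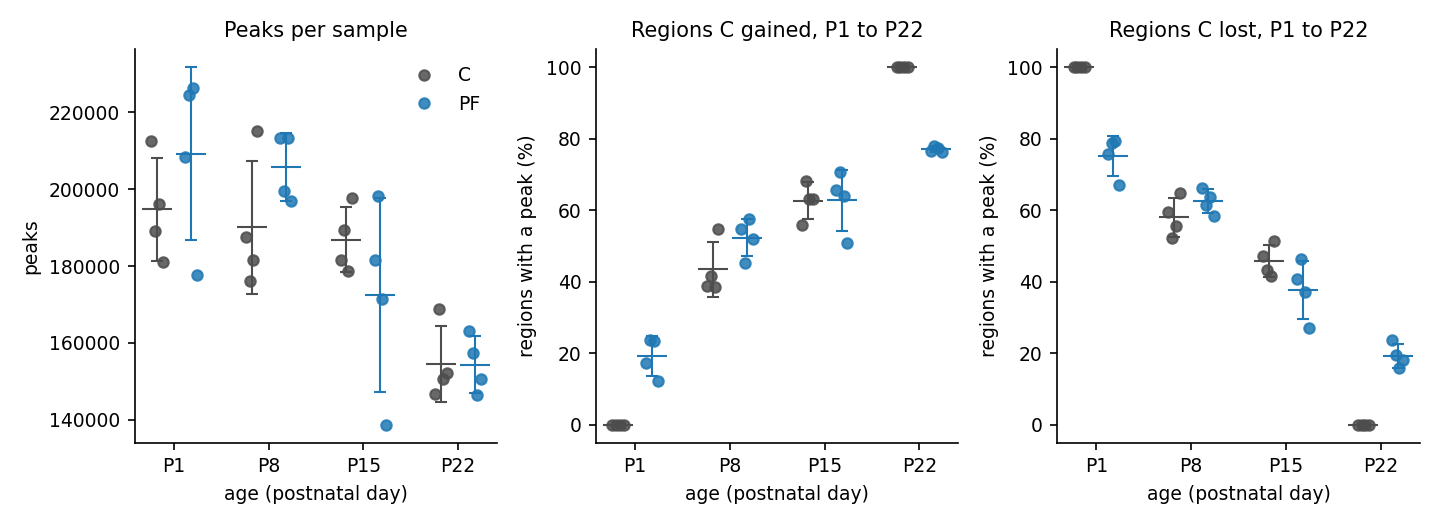
Peaks per sample (left) and the percentage of regions with a peak among those that C gained (middle) or lost (right) between P1 and P22, by postnatal day, with a point per sample and the mean ± SD of each group. C is at 0 or 100% on P1 and P22 because those samples defined the regions, PF overlaps C in peak number at each age, and at P15 PF covers a wider range than C.

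Regions in which C gained or lost peaks between P1 and P22 were then followed in PF. All P22 samples were immunoprecipitated in a different round from the younger ages. A gain or loss between P1 and P22 therefore cannot be told apart from a difference between those rounds. In C, 2296 regions had no peak in any sample at P1 and a peak in all 4 at P22, and 5844 regions showed the opposite. Since C at P1 and P22 chose these regions, only P8 and P15 compare the groups. At P8, the gained regions carried a peak in 43.5% ± 7.71 of cases in C and 52.4% ± 5.26 in PF (SD, n = 4, exact permutation p = 0.114, adjusted p = 0.229). By P15 they stood at 62.6% ± 5.15 in C and 62.8% ± 8.50 in PF (SD, n = 4, exact permutation p = 0.971). The lost regions still had a peak in 58.0% ± 5.43 of cases in C and 62.5% ± 3.37 in PF at P8 (SD, n = 4, exact permutation p = 0.229). At P15, the figures were 45.9% ± 4.39 in C and 37.8% ± 8.11 in PF (SD, n = 4, exact permutation p = 0.114, adjusted p = 0.229). The differences ran from -8.03 to 8.86 percentage points, and with 4 samples per group none of the 4 exceeded the spread between samples.

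The position of the peaks did differ between the groups. PF samples had a larger share of their peaks on chromosomes 2, 4, 5, and 14 and a smaller share on chromosomes 1, 10, 12, and 20, which is 8 of the 21 chromosomes tested (38.1%) at an adjusted p under 0.05. The shares of a sample add up to a whole, so the chromosomes are not independent of each other. Each comparison used a two-sided permutation of labels within ages, with Benjamini-Hochberg adjustment over the chromosomes.

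Chromosome 5 had the smallest p. It held 6.21% ± 0.0763 of the peaks in C and 6.29% ± 0.122 in PF (SD, n = 16), a difference of 0.0787 percentage points (permutation p = 0.0005, adjusted p = 0.00539). At P1, C samples ranged from 6.10 to 6.18% and PF samples from 6.05 to 6.24%, so the groups overlapped. At P22 they did not, with 6.25 to 6.36% in C and 6.43 to 6.49% in PF. The other chromosome with a larger PF share at the same adjusted p, chromosome 4, held 6.40% in C and 6.50% in PF. Chromosome 2 had the largest gain in percentage points, from 8.84% ± 0.167 in C to 9.04% ± 0.255 in PF (SD, n = 16, adjusted permutation p = 0.0190).

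In relative terms, chromosome 12 differed most. Its share was 2.62% ± 0.0908 in C and 2.49% ± 0.113 in PF (SD, n = 16, adjusted permutation p = 0.00539), which is 4.70% less of the C share. At P8, the 4 C samples lay between 2.58 and 2.76% and the 4 PF samples between 2.48 and 2.73%. At P22, C samples lay between 2.52 and 2.75% and PF samples between 2.29 and 2.49%, without overlap. Chromosome 10 stood at 4.78% ± 0.170 in C and 4.64% ± 0.193 in PF (SD, n = 16, adjusted permutation p = 0.0429). The X chromosome showed no such difference, at 2.55% ± 0.381 in C and 2.54% ± 0.413 in PF (SD, n = 16, adjusted permutation p = 0.83). Its share was lower at older ages in both groups, from means of 3.03% in C and 3.09% in PF at P1 to 2.09% in C and 2.02% in PF at P22. The P22 samples were immunoprecipitated apart from the younger ages, so age and immunoprecipitation round cannot be told apart here. The number of chromosomes that passed was 5 when C replicate 1, 14, or 16 or PF replicate 2, 3, 5, 11, or 13 was left out. With sequencing pool, round, and cohort as covariates, chosen after the data were seen, 0 chromosomes passed by the permuted difference (chromosome 5 adjusted p = 0.107) and 9 by the permuted partial correlation.

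**Figure D2:**
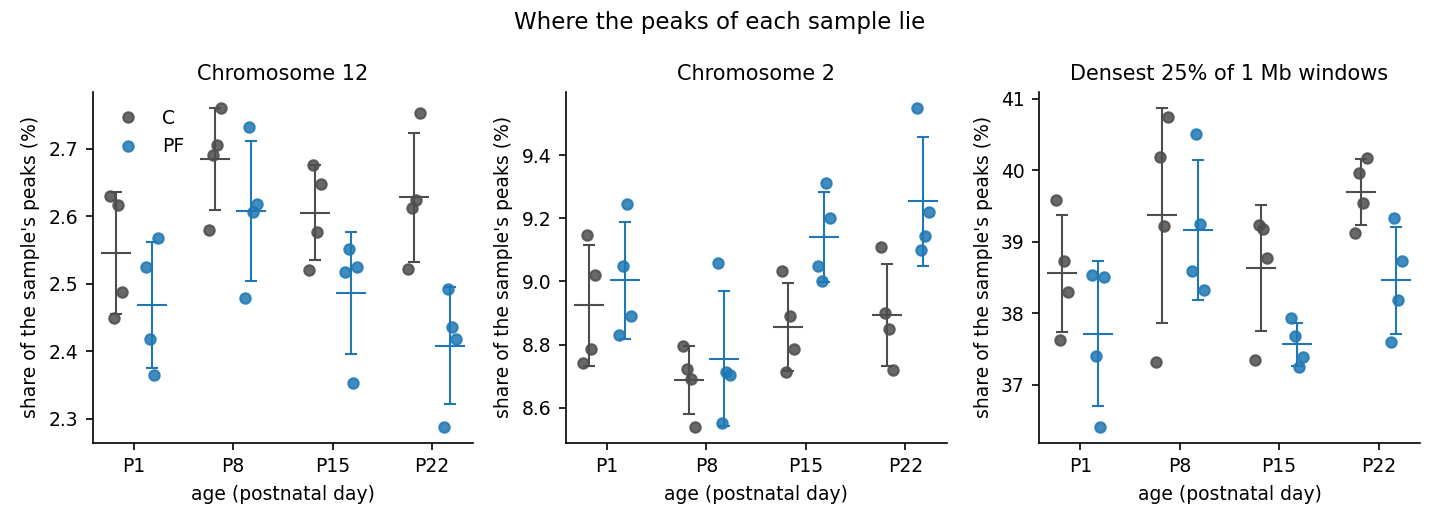
Share of each sample's peaks, in percent, on chromosome 12 (left), on chromosome 2 (middle), and in the 25% of 1 Mb windows with the most peaks (right), by postnatal day, with a point per sample and the mean ± SD of each group. PF means lie under C means on chromosome 12 and in the densest windows at every age, and over C on chromosome 2, and on chromosome 12 the points of PF and C overlap at P1, P8, and P15 but not at P22.

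By mean number of peaks per window, chromosomes 12, 20, and 10 ranked 1, 3, and 4 from the densest of the 21, while chromosomes 14, 5, 4, and 2 ranked 13, 14, 19, and 20. Chromosome 1, at rank 18, was lower in PF all the same. When the genome was divided into 1 Mb windows ordered by their mean number of peaks over all 32 samples, the densest 25% of windows held 39.1% ± 1.02 of the peaks of C samples and 38.2% ± 0.983 of those of PF samples (SD, n = 16). The difference of -0.840 percentage points had a permutation p of 0.0125. By age, the difference was -0.849 at P1, -0.204 at P8, -1.07 at P15, and -1.24 at P22, and with 4 samples per group no single age had an exact permutation p under 0.0571. Across 10 bins of windows of increasing density, the median PF minus C difference in peaks per 100000 peaks was 0.05 (log2) in the sparsest, 0.07 in the next, and -0.03 in the densest. With labels permuted only within extraction rounds, the densest 25% differed by -0.958 percentage points (permutation p = 0.00459), and with littermates averaged by -0.981 (permutation p = 0.0051). The difference was -0.893 with sequencing pool, round, and cohort as covariates (permutation p = 0.0463) and -0.771 with peaks at q under 0.001 (permutation p = 0.0209).

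**Figure D3:**
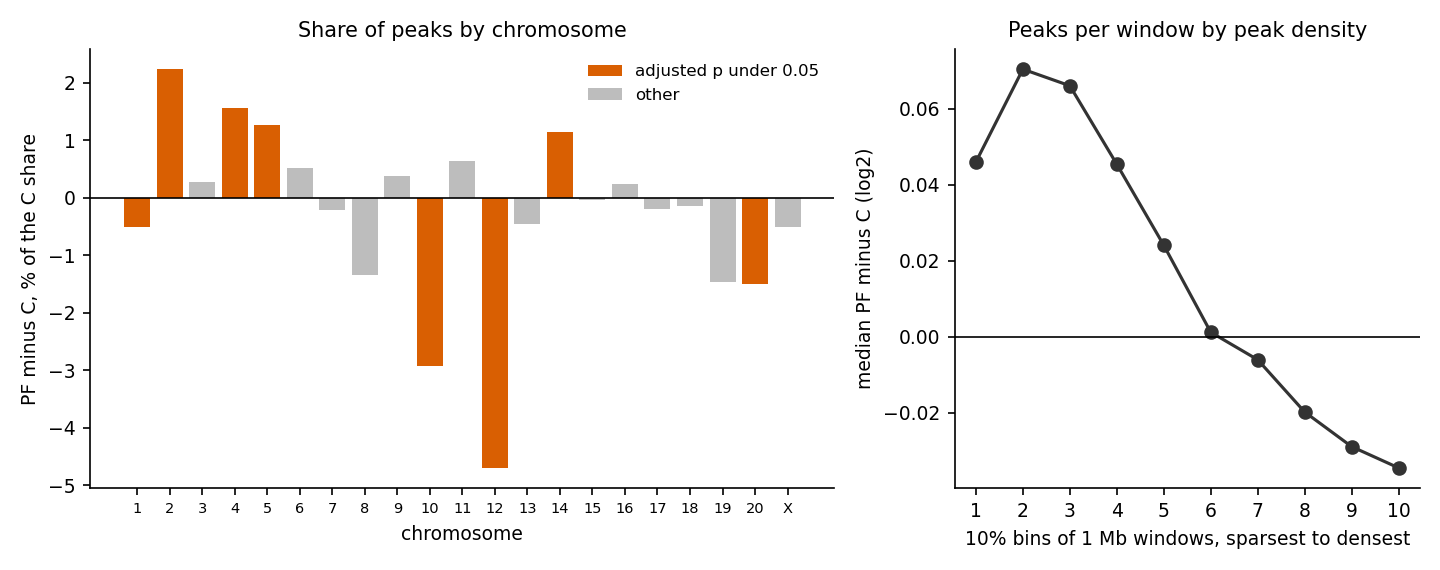
Left, PF minus C difference in each chromosome's share of peaks as a percentage of the C share, with the 8 chromosomes at an adjusted p under 0.05 in orange. Right, median PF minus C difference (log2) in peaks per 1 Mb window across 10 bins of windows from the sparsest to the densest. Chromosome 12 is 4.70% lower in PF, and the medians are over 0 in the sparsest bins and under 0 in the densest.

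Samples with a low chromosome 12 share also had a high chromosome 2 share. Over the 32 samples, deviations from the age means correlated at r = -0.953 for these 2 shares, at 0.936 for chromosomes 12 and 10, and at 0.828 for chromosome 12 and the densest windows. The points are shares of the same peak lists, so these values are a description. Depth and peak number correlated weakly with the chromosome 12 share (r = -0.02 for fragments, -0.05 for peaks, and -0.14 for fragment length). The base composition of the libraries cannot be read from peak lists, and its part in the difference was not tested.

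Of 2789 windows tested with limma, 35 (1.25%) differed between PF and C at an adjusted p under 0.05, and 610 (21.9%) at an unadjusted p under 0.05. PF had more peaks in 29 of the 35, and all 29 were in windows with fewer peaks than the median window, 12 in the sparsest 25% and 17 in the next 25%. PF had fewer in the other 6, all of them denser than the median window. On chromosome 5, the window chr5:20000001-21000000 held 34 to 52 peaks (median 42) in C and 38 to 66 (median 51) in PF, a difference of 0.22 ± 0.04 (log2, SE; limma adjusted p = 0.00752) after scaling to the sample's peaks. The window chr14:66000001-67000000 held a median of 42.5 peaks in C and 50.5 in PF (0.24 ± 0.05, limma adjusted p = 0.0123). Lower in PF were chr12:22000001-23000000, with a median of 120 peaks in C and 112 in PF (-0.14 ± 0.03, limma adjusted p = 0.00752), and chr12:10000001-11000000, with 79 and 73 (-0.15 ± 0.03, limma adjusted p = 0.0188). All 4 windows overlapped between the groups in their raw peak numbers. With each sample's share of peaks in the densest 25% of windows as a covariate, 0 windows passed (smallest limma adjusted p = 0.191, 238 at an unadjusted p under 0.05), although this share is made of the same peaks. The count was also 0 without C replicate 16 or without PF replicate 13, both of P22, and 145 without PF replicate 6 of P8.

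At the level of single regions, no persistent PF vs. C difference passed across the 4 ages. Among the 377251 regions called in 3 or more of the 32 samples, 0 (0.00%) had an adjusted p under 0.05 in limma, with extraction round and breeding cohort as covariates, and the smallest adjusted p was 0.468. At an unadjusted p under 0.05 there were 19354 regions (5.13%), of which 9615 were higher (2.55%) and 9739 lower (2.58%) in PF. Fisher's exact test on called peaks gave 4342 regions at an unadjusted p under 0.05. The median difference was -0.0023 (log2), the central 95% of regions lay between -0.36 and 0.35, and the median SE was 0.16. No region had a peak in all samples of one treatment and none of the other, and 0 regions (0.00% in each direction) had groups that did not overlap.

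The whole profile of heights was also compared by the share of variance between the group means. This share was 5.19%, against a median of 4.99% in permuted labels (permutation p = 0.123). Where all 32 samples had a peak (26634 regions) it was 5.70% (permutation p = 0.00126), and in all regions after averaging littermates 6.05% (permutation p = 0.00111). The mean r was 0.640 among PF samples of one age and 0.628 among C samples (permutation p = 0.417).

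The 5 regions with the smallest p in each direction are described next, with heights in fragments after scaling between samples. On chromosome 13, chr13:69064772-69065551 had a peak in 15 of 16 C samples and 5 of 16 PF samples. Peaks stood between 18.2 and 29.3 in C wherever present, and the 5 PF samples with a peak were no lower, at 19.3 to 30.2. Samples without a peak lay under the calling threshold, by an amount the files do not give. The difference was -1.16 ± 0.20 (log2, SE), with a limma adjusted p of 0.468.

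A further 4 regions were lower in PF. At chr1:55701352-55703407, a tall peak was present in every sample. Heights ran from 150 to 306 in C (median 250) and from 139 to 247 in PF (median 195), and at P8 and P15 all 4 PF samples lay under all 4 C samples. The difference was -0.33 ± 0.06 (log2, SE, limma adjusted p = 0.468), and by age it was -0.29, -0.48, -0.26, and -0.27. At chr19:53345957-53346472, 11 C samples had a peak of 16.3 to 26.3, and no PF sample did. At chr18:75460234-75460736, 13 C and 2 PF samples had a peak, and at chr14:17137932-17138587, 15 C and 8 PF samples (limma adjusted p = 0.916 for the last). The regions on chromosomes 19 and 18 reached a peak in 3 samples only through C, so no p is given for them.

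Higher in PF was chr9:13987504-13987945, with a peak in 3 C samples (22.6 to 26.3) and 13 PF samples (23.2 to 34.1). At P1, no C sample and 3 of 4 PF samples had it, and the difference over ages was 1.24 ± 0.25 (log2, SE, limma adjusted p = 0.916). A region on chromosome 17, chr17:31691566-31692422, had a peak in every sample, with heights of 9.66 to 27.9 in C (median 18.6) and 18.8 to 34.0 in PF (median 26.5). At P1 and P15 all PF samples were higher than all C samples, and the difference over ages was 0.50 ± 0.10 (log2, SE, limma adjusted p = 0.916). Peaks at chr8:93408649-93410100 were called in 8 C and 15 PF samples and at chr1:125837821-125838397 in 7 and 15 (limma adjusted p = 0.916 each). At chr18:57148059-57148535, with a peak in 1 C and 10 PF samples, the region entered through PF alone, and no p is given. No gene can be assigned to these positions, as no annotation of the Rn6 build was used here.

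**Figure D4:**
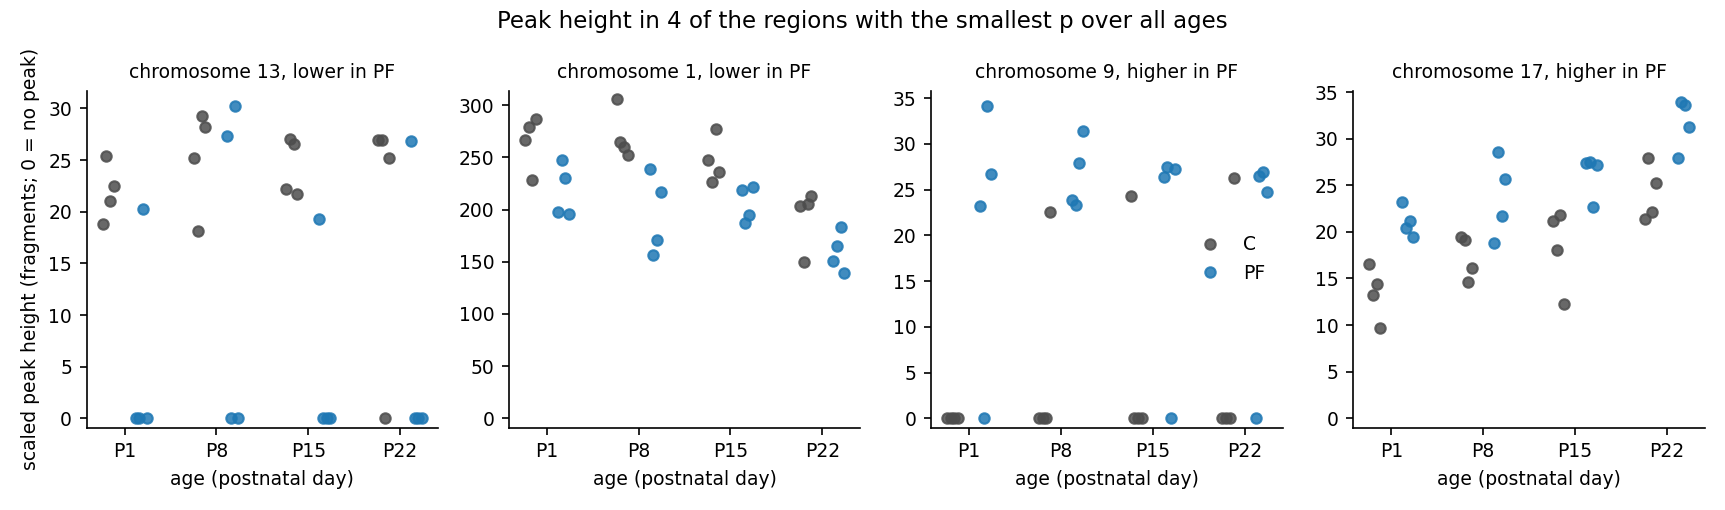
Scaled peak height (fragments, 0 where no peak was called) in 4 of the regions with the smallest p over all ages, by postnatal day, with a point per sample. On chromosomes 13 and 9 the groups differ in how many samples have a peak, 15 C against 5 PF and 3 C against 13 PF, and on chromosomes 1 and 17 all samples have one, with medians of 250 in C and 195 in PF and of 18.6 in C and 26.5 in PF.

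The regions on chromosomes 1 and 17 passed when testing was limited to the 26634 regions with a peak in all 32 samples, where 4 regions had a limma adjusted p of 0.0402. The others were chr8:80115533-80117135 and chr11:15458498-15459861. The region on chromosome 8 stood at 47.9 to 174 in C (median 91.2) and at 72.1 to 186 in PF (median 145). Most C samples were under 108, but 2 C samples of P1 were as high as the PF samples. At chr11:15458498-15459861, heights were 11.7 to 33.5 in C (median 20.9) and 17.1 to 42.1 in PF (median 29.3), a difference of 0.54 ± 0.12 (log2, SE), and all 4 PF samples were higher than all C samples at P8 and P22.

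Leaving out samples without a peak instead gave 7 regions with a limma adjusted p under 0.05, of which 5 were higher in PF and 4 of those on chromosome 9. At chr9:1433486-1434164, heights were 50.8 to 89.3 in 15 of the C samples and 201 in C replicate 3 of P1, and 68.7 to 215 in PF. At P15, the 4 PF samples stood at 198, 183, 137, and 195, and the 4 C samples at 62.5 to 74.9, so the groups were far apart at that age. At chr9:8360904-8362374, the P15 samples stood at 46.5 to 74.9 in PF and 20.8 to 27.5 in C. At chr14:94369789-94371263, which had the same order of groups at that age, P15 heights were 201 to 284 in PF and 129 to 142 in C. Over 7 regions of chromosomes 9 and 14, chosen after their values were seen for being higher in PF, pairwise r across the 32 samples ran from 0.05 to 0.909. Close to some of them lay regions with lower estimates in PF over ages, which the choice left out. These were chr9:12362510-12363606 (-1.04, log2) and chr14:94348710-94349386 (-0.81). The choice of regions favours high PF values, so the following is a description. The 8 samples with the highest mean over these regions were PF, 7 of them from breeding cohort Dev-4, and the ninth was C replicate 3. PF replicates 5 and 10, and PF replicates 9 and 15, are littermates. The remaining PF sample of cohort Dev-4, PF replicate 6, was at -0.23 (log2) from the mean of the 32 samples, and the 8 C samples of that cohort were between -0.62 and -0.08. Whether these regions lie in sequence that occurs in several copies was not checked, as no Rn6 genome was used here.

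**Figure D5:**
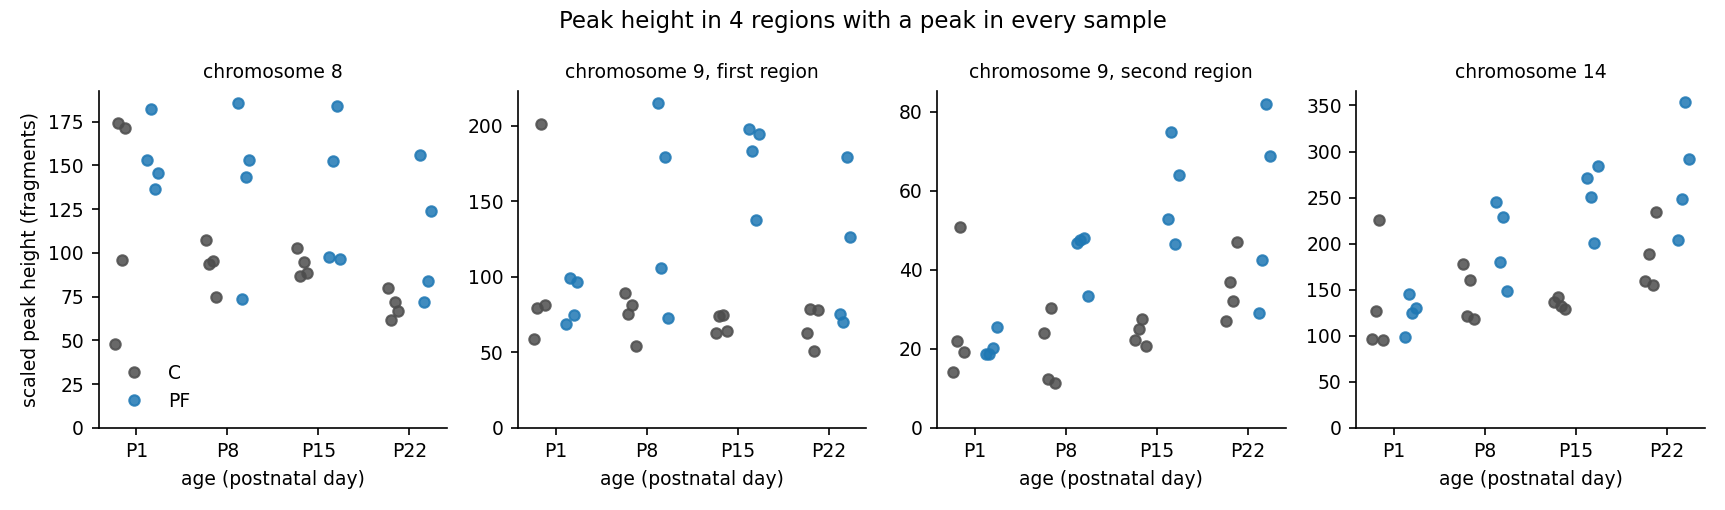
Scaled peak height (fragments) in 4 regions with a peak in every sample, 1 on chromosome 8, 2 on chromosome 9, and 1 on chromosome 14, by postnatal day, with a point per sample. At P15 the PF points on chromosomes 9 and 14 lie over all C points, at P1 they do not, and 1 C sample at P1 is as high as the PF samples of P15.

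Single ages were compared in the same model with group by age terms. Regions with a peak at one age in one group alone enter such a comparison through the group where they are high, against a floor that does not vary, so the counts and percentages at single ages are a description and support no difference. At P1, 118 regions (0.0313%) had a limma adjusted p under 0.05, 69 higher (0.0183%) and 49 lower (0.0130%) in PF. P8 had 0 (0.00%), with 15664 regions at an unadjusted p under 0.05 (4.15%). P15 had 21 (0.00557%), with 11 higher (0.00292%) and 10 lower (0.00265%), and P22 had 450 (0.119%), with 315 higher (0.0835%) and 135 lower (0.0358%). Unadjusted, P1 had 4.77%, P15 7.09%, and P22 7.09% of regions at p under 0.05. Limma's F test of PF vs. C between ages has the same limit. It gave 18 regions (0.00477%) at an adjusted p under 0.05 and 20674 (5.48%) at an unadjusted p under 0.05. The 3 with the smallest p had peaks only in the 4 samples of one group at one age. These counts support no difference between ages either. The first count was 0 in 1 kb bins, with a peak required in 5, 16, or 32 samples, with robust moderation, and with the replicate block. It ran from 0 to 142 without one sample.

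Most of the regions called at one age had no peak at all in one of the groups there, namely 108 of 118 at P1, 18 of 21 at P15, and 381 of 450 at P22. At P1, 67 of the 118 had no peak in any sample of another age, against 1 of 21 at P15 and 144 of 450 at P22. The median number of samples with a peak among the 24 of other ages was 0 at P1, 3 at P15, and 1 at P22, and 4, 8, and 72 of the regions had one in at least 12 of those samples. With samples without a peak left out, 1 region passed in limma at P1, 2 at P8, 14 at P15, and 2 at P22. With each age fitted alone by limma, 1 region passed at P1, 1 at P8, 7 at P15, and 2 at P22.

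The regions with the smallest p at single ages were on or off by group. At chr10:5580433-5581020, the 4 PF samples of P1 stood at 20.4, 20.4, 15.4, and 13.3, and no other sample had a peak. The converse at P1 was chr3:52973830-52974466, with 12.1 to 17.2 in C and no peak in PF at that age. At P15, chr16:70397189-70397608 had peaks of 19 to 23.3 in the 4 C samples and in no other sample of any age, and chr7:144776794-144777646 had 10.4 to 14.1 in the 4 PF samples. At P22, chr17:87099604-87100067 had 15.9 to 26.9 in PF only and chr2:185375158-185375626 had 15.3 to 16 in C only. Another P22 region, chr5:47302527-47303070, had 15.1 to 24.4 in PF and was among the 3 with the smallest p for group by age, beside those of chromosomes 16 and 17. At P8, the smallest p belonged to chr19:10085548-10086366, with 19 to 22.5 in PF and none in C, and to chr17:56814345-56814835, with 13.7 to 17.2 in C and none in PF. None of the 9 would have had a peak in 3 samples without the group and age at which it was high, so no p is given for them.

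Of the 377251 regions, 641 at P1 had a peak in all 4 PF samples and in no C sample of that age, and 270 had the opposite. The numbers were 729 and 224 at P8, 342 and 745 at P15, and 444 and 491 at P22. The surplus lay with PF at P1 and P8, where PF samples averaged 209280 and 205799 peaks against 194785 and 190057 in C, and with C at P15, where PF averaged 172481 and C 186864. These counts follow peak number, whose part in them was not tested. Without overlap of heights were 2555 regions higher (0.677%) and 2553 lower (0.677%) in PF at P1. Higher and lower shares were 0.757% and 0.624% at P8, 0.587% and 0.806% at P15, and 0.673% and 0.610% at P22.

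PF vs. C differences at one age had little relation to those at another. Across regions, estimates of 2 ages correlated at r = -0.003 to 0.039 (6 pairs of ages), and at -0.004 to 0.082 where no sample lacked a peak. The value was highest for P15 and P22, which share 2 C litters and 1 PF litter. The sign was the same at 4 ages in 29612 regions with higher estimates in PF (7.85%) and in 22500 with lower ones (5.96%). These counts include regions without any peak at some ages, where the sign of the estimate is only rounding error. They therefore do not measure agreement between ages. Littermates of different ages hardly resembled each other in what the model left unexplained, with a mean r of 0.005 over 7 pairs against -0.001 over 41 pairs of other animals of the same group and cohort.

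Regions in named genes were taken from the study's lists of alcohol-associated regions, the one source here that pairs positions with genes. The study chose those on these samples and asked that PF not differ from C, so they are no independent evidence on PF vs. C. Of 109 windows, 96 overlapped a region, and 6 of the 96 were higher and 3 lower in PF at an unadjusted p under 0.05 (2.55 and 2.58% of all regions). None passed the adjustment over all regions in limma for the average over ages. The median difference was -0.02 (log2), and 47.9% were higher in PF.

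Of 7 regions in genes of immune and inflammatory signalling, 0 were higher and 0 lower in PF at an unadjusted p under 0.05 (2.55 and 2.58% of all regions). Ccrl2, an atypical receptor for the chemoattractant chemerin, had a peak in 7 C and 9 PF samples, with a difference of 0.18 ± 0.18 (log2, SE). Tifa, an adaptor that links receptors to NF-kappa B, had one in 15 samples of each group (0.10 ± 0.11). Tbxas1, the thromboxane synthase, had one in 3 C and 0 PF samples and so entered through C alone. Il18r1, a subunit of the interleukin receptor of that name, Ifih1, a sensor of viral RNA, and Nlrp1a, an inflammasome sensor, had peaks in 3, 3, and 5 of the 32 samples.

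Of 23 regions in genes of neuronal excitability, synapse, and adhesion, 2 were higher and 1 lower in PF at an unadjusted p under 0.05, against 2.55 and 2.58% of all regions. In Sema3e, a guidance cue for axons and vessels, 10 C samples and 14 PF samples had a peak, with a median of 11.7 in C and 16.3 in PF (0.50 ± 0.22, limma adjusted p = 0.916). In Gnao1, which encodes the main G protein alpha subunit of neurons, the 4 PF samples of P1 stood at 11.1, 9.7, 8.1, and 13.3, and no C sample of P1 had a peak. Outside P1, 1 sample in 24 had a peak there. It entered through the PF samples of P1, so no p is given. At one of 4 regions of Cntnap5c, a neurexin-family adhesion protein, 8 C and 3 PF samples had a peak (-0.34 ± 0.13). With each sample left out in turn, the other regions of this gene ran from -0.287 to -0.0748, from 0.00943 to 0.153, and from -0.359 to -0.167. The regions in Lpar1, a receptor for lysophosphatidic acid, and Hcn2, a pacemaker channel, were present in all 32 samples. Lpar1 stood at 18.8 to 34.9 in C and 21.3 to 32.9 in PF (-0.06 ± 0.10), and Hcn2 at 27.9 to 53.0 in C and 33.3 to 55.9 in PF (0.09 ± 0.09).

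Of 9 regions in metabolic and endocrine genes, 0 were higher and 1 was lower in PF at an unadjusted p under 0.05 (2.55 and 2.58% of all regions). This was in Adh4, an alcohol and retinol dehydrogenase, where 9 C samples and 4 PF samples had a peak, none of the PF ones at P15 (-0.54 ± 0.19, limma adjusted p = 0.916). Tmprss6, a protease that controls hepcidin, had a peak in 3 C and 8 PF samples (0.39 ± 0.19, not past an unadjusted p of 0.05), and Pgm1, a phosphoglucomutase, in 7 and 5 (-0.13 ± 0.21). Uts2b, a urotensin-like peptide, was called in 13 samples of each group, and Pde7b, which breaks down cyclic AMP, in all 32 (0.03 ± 0.10).

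Among the remaining 57 regions, 4 were higher and 1 lower in PF at an unadjusted p under 0.05, beside the same 2.55 and 2.58% of all regions. Map3k13, a kinase of axon injury signalling, was called in every sample, with medians of 24.9 in C and 34.3 in PF (0.39 ± 0.15, limma adjusted p = 0.916). At P8, the C samples stood at 18.3 to 36.1 and the PF samples at 34.1 to 49.6. Mlh3, a mismatch repair protein, was called in 13 C and 8 PF samples (-0.57 ± 0.19, limma adjusted p = 0.916). In Fam13a, the 4 C samples of P22 lacked a peak that 23 of the 24 samples of the younger ages had, and the PF samples of P22 stood at 22.6, 19.1, 15.7, and 14.0. These genes, outside the 3 groups, were named after their values were seen.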

How the data were processed

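Fragments from 32 hypothalamus samples were analysed by meDIP-seq. Per the labels and the submitters' processing notes, the authors used BWA, SAMtools, MACS2 2.1.0.20140616, and DiffBind with the Rn6 build. They deposited a peak list per sample, called without an input control at q under 0.05. The signal that the authors deposited is the pileup height in fragments. The deposited fold enrichment and -log10 q-value were used in alternatives. Here, summits of a peak were joined, peaks overlapping by 1 bp were merged over samples, and regions with a peak in 3 or more samples were kept. The highest pileup was divided by a scaling factor, the median ratio over regions with a peak in all 32 samples (0.735 to 1.29), floored at 6.66 fragments where no peak was called, and put on the log2 scale. PF vs. C was fitted with limma 3.58.1 (R 4.3.3) with a trend, extraction round (9 rounds, which separate the ages), and breeding cohort (4 cohorts), leaving 19 residual degrees of freedom, or 16 with group by age terms. Sample measures were tested by permuting labels within ages (100000 resamples, or all 70 splits within an age) with scipy 1.17.1 and numpy 2.4.6 (Python 3.11.15, pandas 2.3.3). Windows of 1 Mb were fitted as log2 of peaks per 100000 peaks plus 1. P-values were adjusted by the Benjamini-Hochberg method over all features tested. Scripts were tested on simulated data.

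Named regions were the 5 with the smallest p in each direction over all ages, 1 per direction at each age, 3 for group by age, and 2 windows per direction, beside the chromosome with the smallest p, the X chromosome, and genes of 3 functional groups. Other chromosomes, and other regions described, were chosen after their values were seen. The members and lists were chosen with earlier results of these data known. Litters were taken as animals with the same breeding cohort and number in the labels. The results for 1 gene are not reported here. The WBC sample of PF replicate 15 had peaks in 22.8% of the WBC-only regions and was left out of the tissue check.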

Additional observations from a re-analysis of the deposited data

Results flagged for a closer look

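The following values stood apart from the other samples of their group of 4 by Dixon's test, in 112 such groups, of which chance alone marks about 1 in 20. Covered length at P22 was 89.4 Mb in C replicate 14, against 80.2 to 81.5 Mb in the other C samples, and 87.6 Mb in PF replicate 13, against 79.9 to 81.0 Mb in the other PF samples. PF replicate 11 of P15 had the lowest chromosome 12 share of its group, at 2.35% against 2.52 to 2.55%. The same sample was the lowest of its group at chr17:31691566-31692422, with a height of 22.7 against 27.2 to 27.5 fragments, which still lay over the C samples of that age. At chr1:55701352-55703407, C replicate 14 of P22 stood at 150 against 203 to 213 fragments. Limma's test of PF vs. C between ages gave 18 regions at an adjusted p under 0.05, and 0 with a peak required in 5 or more samples. The average over ages gave 0. In the test between ages, the 3 with the smallest p had peaks only in the 4 samples of one group at one age, through which they entered the test. The 18 regions thus support no difference between ages.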

How the results depend on the processing

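Across the 4 ages, 0 regions passed in limma under every alternative except 4 when a peak in all 32 samples was required and 7 when samples without a peak were left out, and 0 to 1 passed when leaving out each sample in turn. Unadjusted counts were 8822 with a peak in 16 or more samples, 1727 with a peak in all 32, 10871 without floored values, and 4342 by Fisher's exact test, where fewer regions were tested or the test differs.

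Counts at single ages moved far more. At P1 they were 40, 0, and 0 with a peak in 5, 16, or all 32 samples, 47 with the floor divided by 2, 1 without floored values, 829 when scaled by fragments, 217 with age and breeding cohort as covariates, 0 with the replicate number as a block, 35 with robust moderation, and 1 when fitted alone. At P8 they were 7 with peaks at q under 0.001, 2 in 1 kb bins, 1 with a peak in 5 or more samples and in all 32, 2 without floored values, 2 when scaled by fragments, 1 after quantile normalization, 7 with age and cohort, 1 with extraction round only, and 1 alone. At P15 they were 10 with fold enrichment, 2 and 8 with a peak in 16 or all 32, 1 when scaled by fragments, 39 with age and cohort, 55 with extraction round only, 3 with the replicate block, and 7 alone. At P22 they were 281 with fold enrichment, 930 with q under 0.001, 114, 16, and 2 with a peak in 5, 16, or 32 samples, 2 without floored values, 299 when scaled by fragments, 1221 after quantile normalization, and 2 alone. Group by age gave 36 with q under 0.001, 0 in 1 kb bins and with a peak in 5, 16, or 32 samples, 5 with the floor divided by 2, 30 when scaled by fragments, 29 after quantile normalization, 50 with age and cohort, 28 with round only, and 0 with the replicate block or robust moderation, and was not run without floored values. Leaving out each sample in turn gave 30 to 199 at P1, 0 to 29 at P8, 17 to 131 at P15, 284 to 1103 at P22, and 0 to 142 for group by age, the highest without PF replicates 4, 8, and 9 and, for the last 2, C replicate 14. The cause was not tested.

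The replicate numbers did not pair the samples (mean r of same-numbered deviations 0.004, 0 of 16 over 0.1). The share of variance passed under labels swapped within pairs (5.19%, permutation p = 0.0357), with a peak in all 32 (5.70%), and for means of littermates (6.05%), and ran from 5.34 to 5.51% without one sample. Chromosomes that passed numbered 0 with sequencing pool, round, and cohort together as covariates (9 when the partial correlation was permuted) and 5 to 10 without one sample. Windows that passed numbered 11 with q under 0.001, 2 at 250 kb, 145 at 5 Mb, 34 with the replicate block, 0 with the share of the densest 25% as a covariate, and 0 to 145 without one sample. They moved by over 1.5 times without C replicates 2, 4, 5, 6, 7, 9, 14, and 16 and PF replicates 6, 7, 8, 9, 13, and 16. Signs turned for the gained regions at P15 (-0.216 percentage points with q under 0.001, and -2.50 to 4.16 without one sample), for the X share (0.0119 for means of littermates, 0.00135 with pool, round, and cohort, and -0.0318 to 0.00888 without one sample), and for fragments (-223335 to 305833 without one sample). None of these had an adjusted p under 0.05 to begin with. Changes under the calling threshold cannot be seen at any depth here, and 4 samples per age limit what single ages can show.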

Other observations

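Peaks on sequences assigned to the Y chromosome were called in every sample, although all animals are labelled female. They made up 0.0253 to 0.119% of a sample's peaks. PF samples of P1 held 249, 166, 194, and 169 such peaks and C samples of P1 91, 98, 88, and 175. PF replicate 8 of P8 held 155, and the remaining samples held 37 to 107.

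Some regions were missing in all samples of one group at one age while tall elsewhere. At chr9:12362510-12363606, no PF sample of P22 had a peak, whereas the 4 C samples of P22 stood at 65.9 to 109 fragments. At chr14:94348710-94349386, no PF sample of P8 had a peak, against 46.8 to 83.6 in the 4 C samples of P8, and the 4 PF samples of P1 stood at 62.6 to 72.3. At chr6:72733052-72733492, no PF sample of P1 had a peak, against 40.1 to 48.5 in the 4 C samples of P1. These regions were chosen after their values were seen.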
